A study of Bos taurus with 12 samples.

Results

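The circadian clock genes were described in liver biopsies of 12 early lactating Holstein cows. Of 10 genes chosen as the core of the clock, 9 were matched to a transcript whose annotation gives exactly 1 gene symbol, out of 26773 transcripts on the array. These were BMAL1 (also written ARNTL), CLOCK, PER1, PER2, PER3, CRY1, CRY2, NR1D2 and DBP. NR1D1 was found only on a transcript shared with THRA and was not used. Where a gene had several transcripts, which held for PER2 alone, the brighter one on average was taken.

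The control group comprised 6 cows whose ration held 1% wheat bran, and the GSGME group comprised 6 cows whose ration held 1% GSGME, an extract made from grape seed and grape marc meal, on a dry matter basis. Feeding began before calving, and all biopsies were taken in week 1 postpartum, around day 7. Each group held 1 primiparous cow and otherwise multiparous cows. One Affymetrix Bovine Gene 1.0 ST array was hybridised per cow, cows are called here by group and number, and the values are log2 signals, so that a difference of 1 is a doubling. No source used here gives the hour of day at which each cow was biopsied.

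The clock is a feedback loop of transcription found in most cells. BMAL1 and CLOCK bind each other and switch on the PER and CRY genes, whose proteins come back to inhibit BMAL1 and CLOCK. They also switch on NR1D1 and NR1D2 (REV-ERB alpha and beta), nuclear receptors that repress BMAL1, and DBP, a transcription factor that carries the rhythm to output genes. In rodent liver, BMAL1 mRNA peaks when DBP and NR1D1 mRNA are at their lowest, CRY1 peaks later than the other repressors, and feeding time can set the phase.

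The arrays were alike as a whole. Array medians lay between 6.02 and 6.17, the median correlation of an array with the other 11 lay between 0.976 and 0.986, and identical arrays were not found. The median over all transcripts was 6.07 and that over 717 olfactory receptor transcripts, which liver should not express, was 3.67. The mean of 9 hepatocyte markers lay between 12.24 and 12.38 in the control cows and between 12.28 and 12.45 in the GSGME cows. Of the immune, connective tissue, endothelial, bile duct and erythroid marker lists, none held a transcript called between the groups. Cow GSGME_821 had the highest mean of the connective tissue markers (8.25, against 6.90 to 7.23 in the others), the immune markers (8.34, against 7.35 to 7.90) and the endothelial markers (8.97, against 8.37 to 8.87). Cow GSGME_741 had the highest mean of the erythroid markers (6.43, against 5.26 to 5.82). The part of these lists in the clock values was not tested.

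One control cow stood apart in the clock genes. Cow control_1017 had the highest signal of all 12 cows for BMAL1 and CLOCK and the lowest for PER1, PER2, PER3 and CRY2. As a whole its array did not stand apart, with a median correlation of 0.982 with the other arrays and a hepatocyte marker mean of 12.38. Some genes outside the clock list were also extreme in this cow. HNF4A was highest, at 11.37 with no other cow above 10.98, and G6PC1 lowest, at 11.46 with no other cow below 11.79. Its endothelial marker mean of 8.76 was the highest and its bile duct marker mean of 5.97 the lowest among the control cows, and the part of either in its clock values was not tested. Results that rest on cow control_1017 are therefore given with and without it.

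BMAL1, the activator on which the loop depends, had signals of 8.10, 6.31, 7.06, 6.63, 6.16 and 7.11 in cows control_1017, control_819, control_825, control_1041, control_1031 and control_1150. In cows GSGME_821, GSGME_741, GSGME_1047, GSGME_1143, GSGME_1124 and GSGME_1001 it had signals of 6.65, 6.95, 7.63, 7.25, 6.64 and 6.63. The groups overlapped, and control cows held both the highest and the lowest value. The range over the 12 cows was 1.94, a fold of 3.8 between the lowest and the highest liver. The mean was 6.90 ± 0.70 (SD, n = 6) in the control group and 6.96 ± 0.41 (SD, n = 6) in the GSGME group.

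CLOCK, the partner of BMAL1, varied less, with a range of 0.82 over the 12 cows. Its lowest, median and highest signals were 7.81, 8.02 and 8.63 in the control group, and 7.89, 8.08 and 8.33 in the GSGME group. The highest value was again that of cow control_1017, and cow GSGME_1047, which had the highest BMAL1 of its group, also had the highest CLOCK of its group.

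Among the repressors, PER3 varied most. Its signals were 6.60, 8.05, 7.03, 8.14, 8.48 and 7.66 in the control cows, in the order given for BMAL1, and 7.67, 7.67, 7.01, 7.72, 7.98 and 7.28 in the GSGME cows. The order of the cows was close to the reverse of that of BMAL1: cow control_1031 was lowest for BMAL1 and highest for PER3, and cow control_1017 the opposite. PER3 means were 7.66 ± 0.72 (SD, n = 6) and 7.56 ± 0.35 (SD, n = 6).

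PER1, which glucocorticoids also induce, had signals of 7.21, 8.51, 8.36, 8.93, 8.41 and 8.90 in the control cows and 8.31, 7.87, 8.03, 8.36, 7.90 and 8.55 in the GSGME cows. PER2, which like PER1 is a target of the BMAL1 and CLOCK pair, had signals of 6.79, 8.01, 7.94, 8.04, 7.94 and 7.84 in the control cows and 7.85, 7.82, 7.87, 7.94, 7.74 and 7.58 in the GSGME cows. For both genes cow control_1017 lay below the other 11 cows. Without it the control range of PER2 fell from 1.25 to 0.20, and that of PER1 from 1.72 to 0.57. The other PER2 transcript was also lowest in cow control_1017, at 6.60, against 7.07 to 7.69 in the other cows.

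CRY1 and CRY2 encode the cryptochromes, which form the repressing complex with the PER proteins, and they did not move alike. CRY1 had a lowest, median and highest signal of 5.47, 6.04 and 6.55 in the control group and 5.90, 6.24 and 6.97 in the GSGME group. Its lowest value was in cow control_1031 and its highest in cow GSGME_1047, which were also the lowest control cow and the highest GSGME cow for BMAL1. CRY2 had a lowest, median and highest signal of 6.45, 7.11 and 7.30 in the control group and 6.65, 6.82 and 7.01 in the GSGME group, and cows control_1017 and control_825, at 6.45 and 6.54, were below all others.

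NR1D2, the REV-ERB receptor that could be measured, ranged over 1.03. Its lowest, median and highest signals were 9.11, 9.82 and 10.14 in the control group and 9.28, 9.66 and 9.96 in the GSGME group, with the extremes in cows control_1150 and control_1031. DBP varied most of all members, by 2.24 or a fold of 4.7. DBP signals were 8.99, 10.12, 8.90, 9.99, 10.85 and 8.61 in the control cows and 9.91, 9.54, 8.91, 9.05, 9.90 and 9.79 in the GSGME cows. As for NR1D2, cow control_1031 was highest and cow control_1150 lowest. The groups overlapped for all 9 genes.

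**Figure D1:**
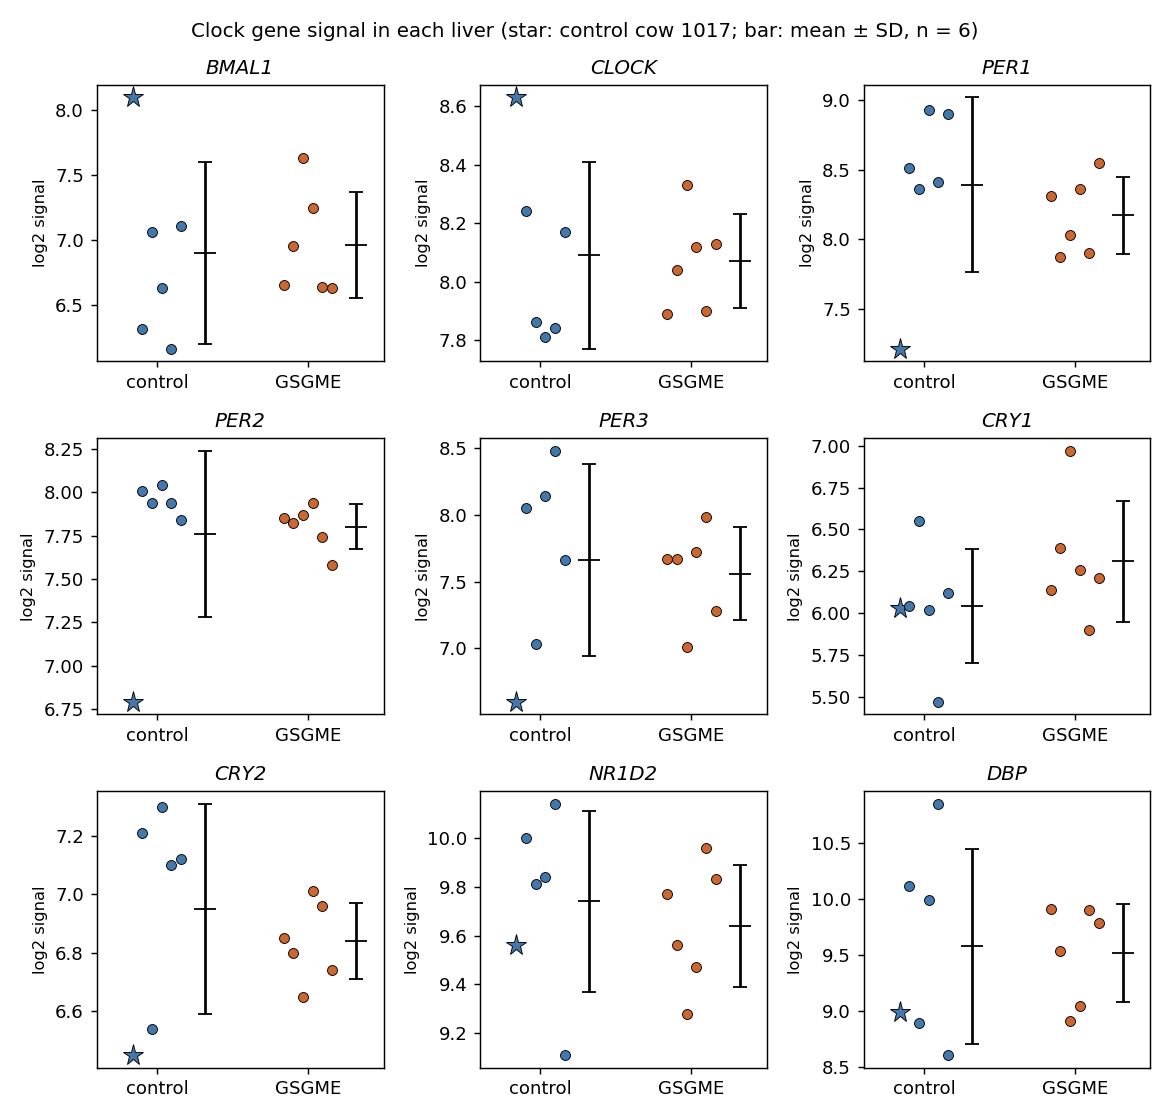
Log2 signal of each of the 9 clock genes (vertical axes, scaled per gene) in 6 control and 6 GSGME livers, 1 point a cow, with the mean ± SD beside each group and a star for cow control_1017. The star is the highest point for BMAL1, at 8.10, and for CLOCK, and the lowest for PER1, PER2, at 6.79, PER3 and CRY2.

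Set against the other transcripts of the array, several clock genes were among the most variable between cows of a group. The SD within groups was 0.69 for DBP, and 1.26% of all transcripts had a higher one. It was 0.58 for BMAL1 and 0.56 for PER3, with 2.58% and 2.76% of transcripts above them, and 0.48 for PER1, with 4.99% above. CLOCK, with an SD of 0.25, was the least variable member, and 28.3% of transcripts varied more. These SDs and shares are given only with cow control_1017 included. Without it the control range fell from 1.94 to 0.95 for BMAL1, from 1.88 to 1.45 for PER3 and from 1.72 to 0.57 for PER1, and that of DBP stayed 2.24. For 8 of the 9 genes the control range was wider than the GSGME range with cow control_1017 included, and CRY1 was near even, at 1.08 and 1.07. The difference in spread was not tested. Without cow control_1017 the control range was still the wider for PER3 (1.45 against 0.97), CRY2 (0.76 against 0.36), NR1D2 (1.03 against 0.68) and DBP (2.24 against 1.00). It was no longer so for BMAL1 (0.95 against 1.00), CLOCK (0.43 against 0.44), PER1 (0.57 against 0.68) and PER2 (0.20 against 0.36).

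The question whether GSGME changed the clock genes was addressed with limma, at the study's criterion, which asks for a fold beyond 1.3 together with an unadjusted p under 0.05. None of the 9 genes was called in limma, none had an unadjusted p under 0.05, and none did in the methods' t-test. For comparison, limma called 1.83% of all transcripts (489, of which 322 or 1.2% were higher and 167 lower), 5.85% had an unadjusted p under 0.05 at any fold, and no transcript had an adjusted p under 0.05. Of the 9 differences between GSGME and control, 3 were positive and 6 negative, with a median of -0.06, beside a median of -0.02 over all transcripts. In biopsies of whole tissue, fewer cells of a type and less RNA per cell cannot be told apart.

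The differences were small beside their errors. BMAL1 differed by 0.06 (95% confidence interval -0.55 to 0.68, limma adjusted p = 0.976), and DBP by -0.06 (95% interval -0.79 to 0.67, limma adjusted p = 0.981). CLOCK, which varied less, had a narrower interval of -0.32 to 0.27 around -0.02. CRY1 had the largest positive difference over the 12 cows, of 0.27 (95% interval -0.12 to 0.66), and its adjusted p of 0.843 was the lowest among the members. It was 0.14 without cow GSGME_1047, 0.16 without cow control_1031 and 0.38 without cow control_825, where the unadjusted limma p came under 0.05 but the fold stayed just under 1.3. Without cow control_1017 it was 0.27 and that of BMAL1 was 0.30. The intervals of all 9 genes included 0, and those of 8, all but CLOCK, reached past the fold threshold on at least 1 side. For these 8 genes a change of that size was not detected, but could not be dismissed with 6 cows a group.

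PER1 was the only member whose call depended on a cow. Over all 12 cows it differed by -0.22 (95% interval -0.74 to 0.30, limma adjusted p = 0.886, exact permutation p = 0.487). Without cow control_1017 the difference was -0.45 (limma p = 0.0109 and adjusted p = 0.747, exact permutation p = 0.0325), which met the criterion, as did 0.747% of all transcripts in that direction in the same fit. Its 5 remaining control cows lay between 8.36 and 8.93 and the GSGME cows between 7.87 and 8.55, so the groups still overlapped. PER2 turned from 0.04 to -0.15 without cow control_1017 (limma p = 0.0867, exact permutation p = 0.0433) and was not called, with neither its fold nor its limma p meeting the criterion. Cow control_1017 was set apart for its clock values and held the lowest PER1 and PER2. Its removal therefore lowers both differences by construction, and the p-values without it are not independent support for a change.

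**Figure D2:**
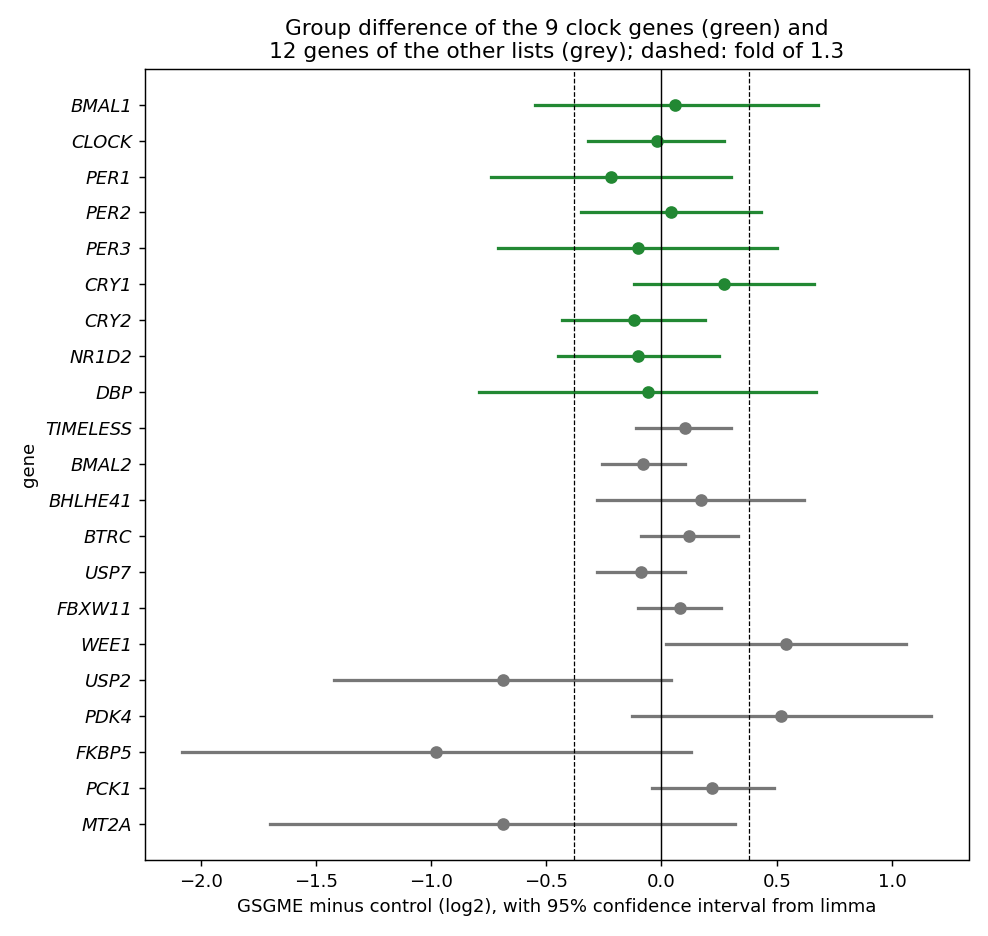
Difference between GSGME and control (horizontal axis, log2) with the 95% confidence interval from limma for the 9 clock genes (green) and 12 genes of the other lists (grey), n = 6 cows a group, with dashed lines at a fold of 1.3. The intervals of the 9 clock genes include 0, and WEE1, at 0.54, is the one gene whose interval lies above it.

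Between animals, the clock genes varied together. All 36 pairs were correlated over the 12 cows, with two-sided permutation tests and adjustment over the 36 pairs. Pearson's r had an adjusted p under 0.05 in 13 pairs and Spearman's rho in 6. An r of at least 0.7 in size was found in 10 pairs (27.8%), 6 positive and 4 negative. It was found in 2.98% of all pairs of transcripts on the arrays. Among transcripts above the median transcript, where all 9 clock genes lay, it was found in 3.46% of pairs. Without cow control_1017, 9 pairs (25.0%) reached that size, beside 4.03% of all transcript pairs and 4.6% of those above the median transcript. Then 9 pairs had an adjusted p under 0.05, of which 7 were among the 13. That cow was set apart for its clock values, so the p-values without it, here and below, are not independent support.

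The signs set the activators against most of their targets. BMAL1 and CLOCK were negatively correlated with PER1, PER2, PER3, CRY2, NR1D2 and DBP in 12 of 12 pairs, with a median r of -0.65, and still in 12 of 12 without cow control_1017, with a median of -0.44. Over the 12 cows only 4 of these pairs had an adjusted p under 0.05, all of them pairs of BMAL1 and none of CLOCK. Without cow control_1017 the r of CLOCK with PER1, PER2 and CRY2 was -0.07, -0.18 and -0.12. The 15 pairs among those 6 genes were all positive over the 12 cows, with a median r of 0.54, and 13 of 15 were positive without cow control_1017. CRY1 was positively correlated with BMAL1 and CLOCK and negatively with 5 of the 6 other genes. Within the control group the corresponding counts were 12 of 12 negative and 14 of 15 positive, and within the GSGME group 9 of 12 and 11 of 15.

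**Figure D3:**
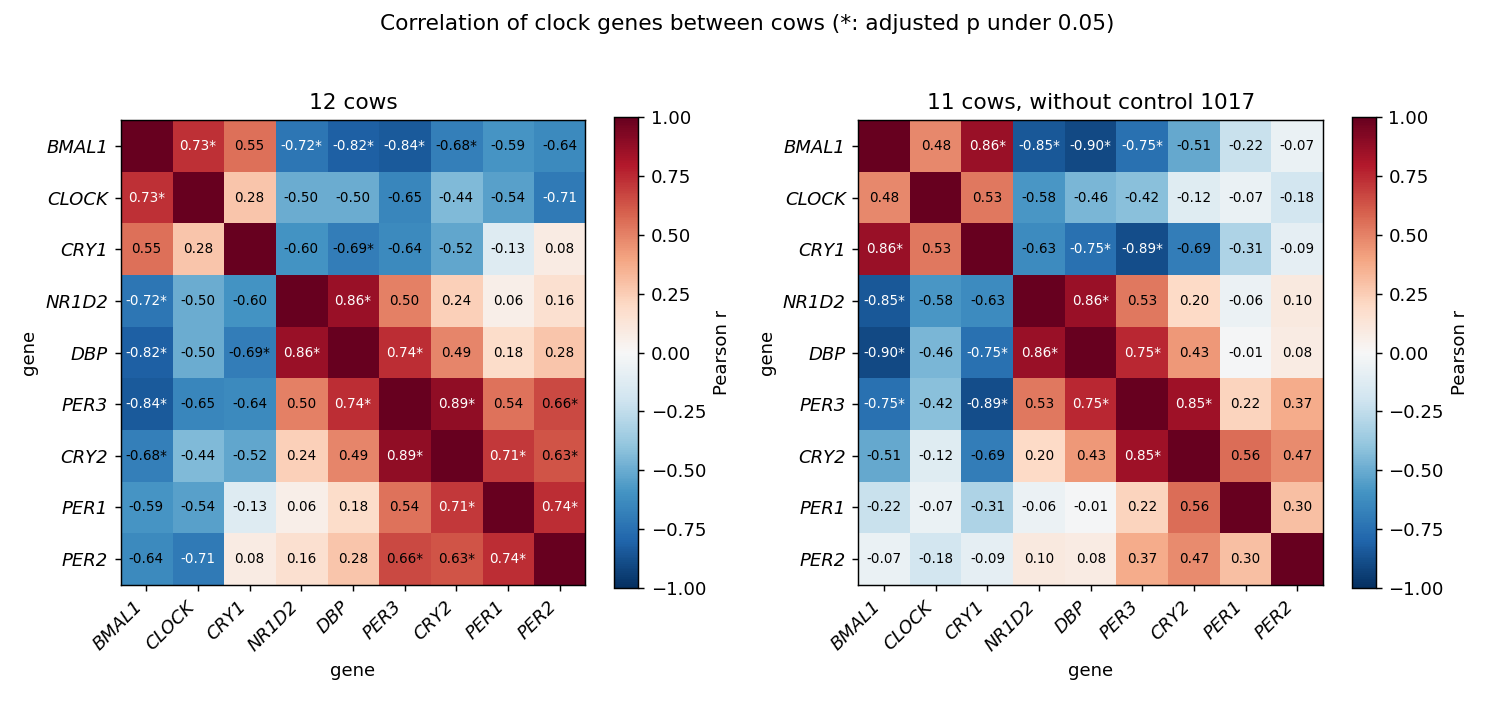
Pearson r between each pair of clock genes over 12 cows (left) and over 11 cows without cow control_1017 (right), with a star where the adjusted p of the permutation test was under 0.05. The 12 pairs of BMAL1 or CLOCK with PER1, PER2, PER3, CRY2, NR1D2 or DBP are negative in both, PER1 with NR1D2, PER1 with DBP and PER2 with CRY1 change sign near 0, and the pair of BMAL1 and CRY1 goes from 0.55 to 0.86 when cow control_1017 is left out.

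BMAL1 and DBP, the activator and its output gene, were correlated at r = -0.82 (permutation p = 0.00081, adjusted p = 0.00729) and rho = -0.85 (permutation p = 0.00076, adjusted p = 0.0112). The relation was seen in both diets, with r = -0.78 in the 6 control cows (exact permutation p = 0.0514) and r = -0.97 in the 6 GSGME cows (exact permutation p = 0.00833). Without cow control_1017, r was -0.90 (permutation p = 0.00031, adjusted p = 0.00558), and without the 2 cows farthest from the BMAL1 median, cow control_1017 and cow GSGME_1047, it was -0.94. Livers with low BMAL1, such as that of cow control_1031 with 6.16, had high DBP, 10.85 in that cow.

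BMAL1 and PER3 were correlated at r = -0.84 (permutation p = 0.00043, adjusted p = 0.00516) and rho = -0.77 (permutation p = 0.00451, adjusted p = 0.0271). The r was -0.93 in the control cows, -0.56 in the GSGME cows, -0.75 without cow control_1017 (permutation p = 0.00915, adjusted p = 0.0366) and -0.65 without cows control_1017 and GSGME_1047. BMAL1 and its repressor gene NR1D2 had r = -0.72 (permutation p = 0.00819, adjusted p = 0.0354) and rho = -0.88 (permutation p = 0.00035, adjusted p = 0.0112). Here cow control_1017, with high BMAL1 but a middling NR1D2 of 9.56, lay off the line of the other cows, and r without it was -0.85 (permutation p = 0.00098, adjusted p = 0.00706). The r of BMAL1 with NR1D2 was -0.63 in the control group and -0.95 in the GSGME group.

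**Figure D4:**
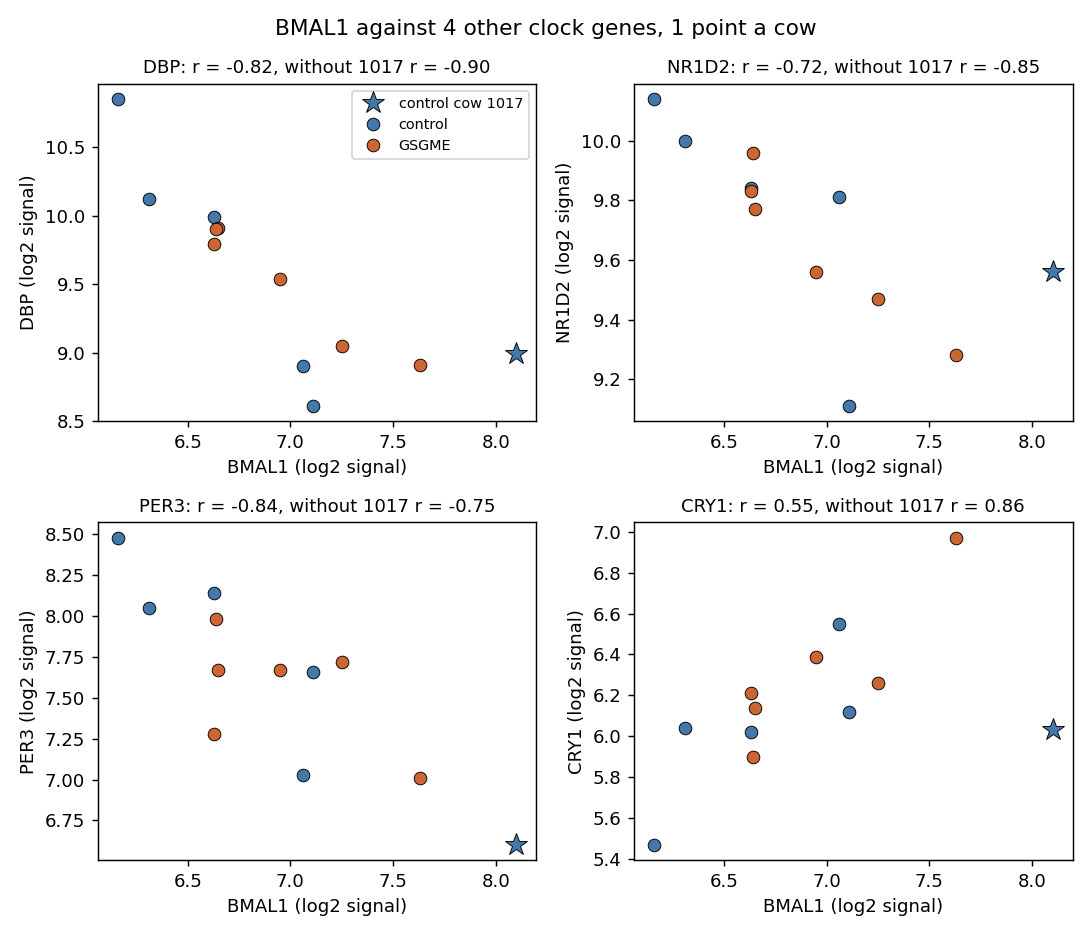
Log2 signal of DBP, NR1D2, PER3 and CRY1 (vertical axes) against that of BMAL1 (horizontal axis) in 6 control (blue) and 6 GSGME (orange) cows, with a star for cow control_1017. DBP falls as BMAL1 rises, with r of -0.82, and cow control_1017 lies off the trend of the other cows for CRY1.

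The relation of BMAL1 and CRY1 was closer once cow control_1017 was left out. Over 12 cows r was 0.55 (permutation p = 0.0673, adjusted p = 0.116) and rho 0.54 (permutation p = 0.0755, adjusted p = 0.143). Without cow control_1017, whose CRY1 signal of 6.03 was near the control median, r was 0.86 (permutation p = 0.00089, adjusted p = 0.00706). The r was 0.42 in the control group and 0.87 in the GSGME group. CRY1 and PER3, both encoding repressors of BMAL1 and CLOCK, were negatively correlated at -0.64 (permutation p = 0.0226, adjusted p = 0.0542), and at -0.89 without cow control_1017 (permutation p = 0.00023, adjusted p = 0.00558). Neither pair had an adjusted p under 0.05 over the 12 cows. Cow control_1017 was set apart for its clock values, so the p-values without it are not independent support for either relation.

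Other relations with BMAL1 were weaker without cow control_1017. BMAL1 and CLOCK had r = 0.73 (permutation p = 0.0077, adjusted p = 0.0354) but 0.48 without that cow (permutation p = 0.13, adjusted p = 0.276) and 0.21 without cows control_1017 and GSGME_1047. The r of this pair was 0.71 in the control group and 0.83 in the GSGME group. Its adjusted p was also not under 0.05 by rho or without any 1 of cows control_1041, control_1031, GSGME_821 and GSGME_1047. BMAL1 and PER2 had r = -0.64 (permutation p = 0.0349, adjusted p = 0.0739) and -0.07 without cow control_1017, and the r was -0.87 in the control group and 0.63 in the GSGME group. BMAL1 and PER1 had r = -0.59 (permutation p = 0.0434, adjusted p = 0.0823) and -0.22 without it. BMAL1 and CRY2 had r = -0.68 (permutation p = 0.0147, adjusted p = 0.0421) and -0.51 without it (permutation p = 0.107, adjusted p = 0.24).

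Among the genes opposite to BMAL1, the closest pairs were PER3 with CRY2 and NR1D2 with DBP. PER3 and CRY2 had r = 0.89 (permutation p = 8e-05, adjusted p = 0.00288) and rho = 0.84 (permutation p = 0.00098, adjusted p = 0.0112), with r = 0.91 in the control cows, 0.88 in the GSGME cows and 0.85 without cow control_1017. NR1D2 and DBP had r = 0.86 (permutation p = 0.00033, adjusted p = 0.00516) and rho = 0.83 (permutation p = 0.00124, adjusted p = 0.0112), with r = 0.85, 0.94 and 0.86 in the same settings. PER1 was related to CRY2, and PER2 to CRY2 and PER3, over the 12 cows, but less closely without cow control_1017. PER1 and CRY2 had r = 0.71 (permutation p = 0.00865, adjusted p = 0.0354) and 0.56 without that cow, with rho = 0.68 (permutation p = 0.018, adjusted p = 0.0924). PER2 and CRY2 had r = 0.63 (permutation p = 0.00884, adjusted p = 0.0354) and 0.47 without it, with rho = 0.61 (permutation p = 0.0419, adjusted p = 0.116). PER2 and PER3 had r = 0.66 (permutation p = 0.013, adjusted p = 0.0421) and 0.37 without it, with rho = 0.58 (permutation p = 0.054, adjusted p = 0.13). None of these 3 pairs had an adjusted p under 0.05 without the cow or by rho. The r of 0.74 between PER1 and PER2 (permutation p = 0.0152, adjusted p = 0.0421) was 0.30 without cow control_1017, and the r of PER1 with NR1D2 and with DBP was 0.06 and 0.18.

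The pairs of BMAL1 with PER3, BMAL1 with DBP, PER3 with CRY2 and NR1D2 with DBP kept an adjusted p under 0.05 in all 16 alternatives run, which left out each cow in turn, used rho, took deviations from the group means, applied cyclic loess or removed the first principal component of all transcripts. The other 9 of the 13 pairs lost it in at least 5 of the 16. For BMAL1 and NR1D2 these were the removal of cows control_819, control_1041 and control_1031 or cows GSGME_821 and GSGME_1047, with r between -0.65 and -0.72. Within the 6 control cows or the 6 GSGME cows alone, no pair had an adjusted p under 0.05 by exact permutation, and the lowest were 0.204 and 0.075. The smallest unadjusted p that 6 cows allow is 0.00139. After adjustment over 36 pairs, a single pair at that p would not come under 0.05, so these tests could hardly find a relation within a group.

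The joint pattern can be seen cow by cow. The first principal component of the 9 genes, each scaled to unit variance, took 60.3% of their variance and the second 20.6%. BMAL1, CLOCK and CRY1 loaded on the first component with one sign (0.41, 0.33 and 0.27) and the other 6 genes with the opposite sign (-0.28 to -0.40). Cow control_1017, with a score of 1.43, lay at one end and cow control_1031, with -1.10, at the other, while the GSGME cows lay between -0.36, for cow GSGME_1124, and 0.90, for cow GSGME_1047. Cow control_1031 had the highest PER3, NR1D2 and DBP of all cows and the lowest BMAL1 and CRY1. Without cow control_1017 the first component took 55.1% of the variance, a value computed after the data had been seen. The loadings of PER1 and PER2 were then both -0.13, from -0.28 and -0.30, that of CRY1 was 0.42, from 0.27, and no sign changed.

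**Figure D5:**
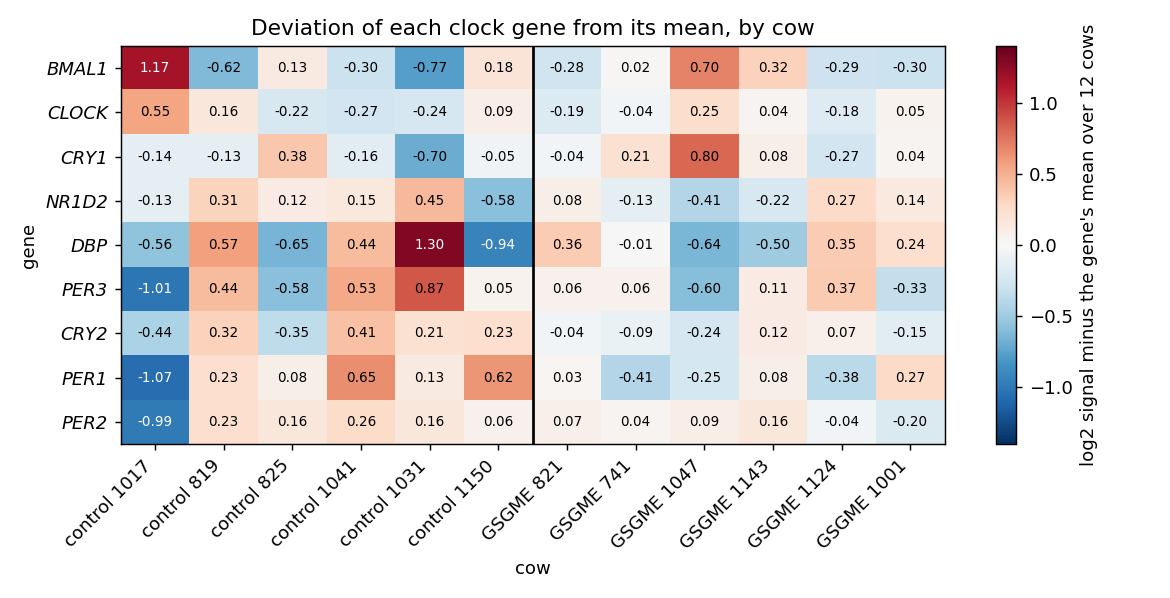
Log2 signal of each clock gene (rows) minus its mean over the 12 cows, for each cow (columns), with red above and blue below the mean and a line between the 6 control and the 6 GSGME cows. BMAL1 was 1.17 above its mean in cow control_1017 and 0.70 above in cow GSGME_1047, cows in which PER3 was 1.01 and 0.60 below its own.

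Other genes of the clock were described from lists. Of 12 other clock factors, 9 were measured, and limma called 0 of them and found 0 at an unadjusted p under 0.05, as did the methods' t-test, with a median difference of -0.05. The lowest limma p in this list were those of TIMELESS, BMAL2 and BHLHE41, with differences of 0.10, -0.08 and 0.17. BMAL2, at 2.98 to 3.39 in the 12 cows, lay under the median of the olfactory receptor transcripts, so its difference is not that of a signal above background. Of 14 kinases, ubiquitin ligases and other regulators of clock protein stability, 12 were measured, and limma and the methods' t-test again called 0 and found 0 at an unadjusted p under 0.05. BTRC and FBXW11, which encode F-box proteins that target PER proteins for degradation, differed by 0.12 and 0.08, and USP7, encoding a deubiquitinase, by -0.09.

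Of 16 genes under clock control in rodent liver, 15 were measured and 1 was called, WEE1, encoding a kinase that delays entry into mitosis. WEE1 was called higher, beside 1.2% of all transcripts. Its signals were 7.63, 8.67, 7.89, 8.87, 8.69 and 7.32 in the control cows and 8.41, 8.84, 8.53, 8.96, 8.88 and 8.69 in the GSGME cows. The 3 low values of cows control_1017, control_825 and control_1150 set the groups apart, and the other 3 control cows lay among the GSGME cows. WEE1 was higher with GSGME by 0.54 (95% interval 0.02 to 1.06, limma p = 0.0429 and adjusted p = 0.83, exact permutation p = 0.102). The methods' t-test called 0 of the list. In limma WEE1 was not called when any 1 of cows control_1017, control_825 and control_1150 or of cows GSGME_1001, GSGME_1124, GSGME_1143 and GSGME_741 was left out, with differences of 0.37 to 0.55.

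USP2, encoding a deubiquitinase of clock proteins whose mRNA is rhythmic in mouse liver, had signals of 5.84, 8.28, 6.85, 7.79, 7.81 and 8.14 in the control cows and 6.71, 6.49, 6.75, 6.65, 6.65 and 7.32 in the GSGME cows. The control cows thus held both the lowest value, in cow control_1017, and the 4 highest. The difference was -0.69 (limma adjusted p = 0.83, exact permutation p = 0.11), and -1.01 without cow control_1017 (limma adjusted p = 0.747, exact permutation p = 0.00649), which met the criterion. In that fit 0.747% of all transcripts met it in that direction. Removing the lowest value lowers the difference by construction, so the p-values without cow control_1017 are not independent support. USP2 also met the criterion without cow GSGME_1001 (-0.80, limma adjusted p = 0.78) and without cow control_825 (-0.81, limma adjusted p = 0.981). In those fits 216 and 201 of 26773 transcripts were called lower. Cow GSGME_1001 held the highest USP2 of its group and cow control_825 the next to lowest of the control group. These removals therefore also lower the difference by construction. PDK4, which inhibits pyruvate oxidation, differed by 0.52 (limma adjusted p = 0.831, exact permutation p = 0.175), and by 0.78, which met the criterion, without cow control_1150 (limma adjusted p = 0.966). Without cow control_1150, 293 of 26773 transcripts were called higher. That cow held the highest PDK4, at 10.77, so its removal raises the difference by construction.

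Glucocorticoids reset the liver clock in rodents and induce PER1, so their response genes were listed as well. All 10 were measured, limma called 0 and found 0 at an unadjusted p under 0.05, as did the methods' t-test, and the median difference was 0.02. FKBP5, a glucocorticoid receptor co-chaperone, spanned 6.70 to 10.34 in the control group, with the highest value in cow control_1150, and 6.54 to 8.45 in the GSGME group. Its difference of -0.98 did not meet the criterion (exact permutation p = 0.134). Without cow control_1031, control_825 or GSGME_1047 it did, at -1.28, -1.19 and -1.22 (limma adjusted p = 0.852, 0.981 and 0.968). In those fits 195, 201 and 163 of 26773 transcripts were called lower. Cow control_1031 held the lowest FKBP5 of the control group, control_825 the next lowest and GSGME_1047 the highest of its group. Each removal therefore lowers the difference by construction. MT2A, a metallothionein, differed by -0.69 (exact permutation p = 0.242), and by -1.06, which met the criterion, without cow control_825 (limma adjusted p = 0.981). That cow held the lowest MT2A, so its removal also lowers the difference by construction. PCK1, an enzyme of gluconeogenesis, differed by 0.22 (exact permutation p = 0.132).

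The 46 measured genes of these 4 lists were also set against BMAL1 over the 12 cows, with adjustment over the 46. For r, 0 had an adjusted p under 0.05 in the permutation test and 8 an unadjusted p under 0.05. The share of all transcripts with such an unadjusted p was not computed, so the 8 are not a result about these lists. HLF, a transcription factor of the same family as DBP, was the one gene to pass by rho, with rho = -0.86 (permutation p = 0.00053, adjusted p = 0.0244). Its r was -0.77 (permutation p = 0.00326, adjusted p = 0.075), and -0.89 without cow control_1017 (permutation p = 0.00041, adjusted p = 0.0189). NPAS2, which can take the place of CLOCK as partner of BMAL1, had r = 0.75 (permutation p = 0.00604, adjusted p = 0.0926) and 0.47 without cow control_1017. POR, the electron donor of cytochrome P450 enzymes, had r = -0.79 (permutation p = 0.0032, adjusted p = 0.075), with -0.96 in the control cows and 0.20 in the GSGME cows.

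As a description, transcripts with 1 symbol and a signal above the median transcript (10368) were ordered by r with BMAL1. DBP was the 15th most negative over the 12 cows, PER3 the 6th, HLF the 41st and NR1D2 the 80th. Without cow control_1017 the places of DBP, HLF and NR1D2 were 1, 2 and 9, and that of PER3 was 62. On the positive side CLOCK held place 138 and CRY1 place 791 over the 12 cows, and places 1045 and 7 without cow control_1017. The order was thus set in part by a single animal.

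The transcripts most like BMAL1 over the 12 cows, members apart, were DDX54 (r = 0.92), MDN1 (0.89), ALKBH5 (0.89), SPATA5 (0.88) and NCL (0.87). Those most opposite were NDUFA4 (-0.88), LOC786706 (-0.87), BGN (-0.86), PIGV (-0.85) and F11R (-0.85). Without cow control_1017 the r of these 10 lay between 0.78 and 0.89 and between -0.72 and -0.79. The lowest r without that cow were then those of HLF, IL6ST (-0.88), OSMR (-0.88), SERPING1 (-0.86) and INHBC (-0.86). IL6ST, the shared receptor subunit of interleukin 6 type cytokines, had r = -0.01 when cow control_1017 was included.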

How the data were processed

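Liver RNA of 12 cows was measured, with 1 array of the type Bovine Gene 1.0 ST for each cow. The authors ran RMA within Affymetrix software to correct background, normalize the arrays together and summarise probes, and deposited log2 signals with 2 decimals. No software version was found. Transcripts took their names from the platform annotation. One that listed several genes was left unnamed, so NR1D1, which shares its transcript with THRA, was not reported. Cows were grouped by their labels.

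Group differences of the log2 values were tested with lmFit and eBayes of limma 3.58.1 (R 4.3.3, two-sided tests) over all 26773 transcripts, followed by Benjamini-Hochberg adjustment. For a call, the fold had to exceed 1.3 in either direction and the unadjusted p to be under 0.05. Differences of single genes were also given an exact permutation test over all splits of the cows, two-sided and not adjusted. Correlations were tested with 100000 resamples over all cows and with all 720 pairings within a group, in Python 3.11.15 with numpy 2.4.6 and scipy 1.17.1. The limma and correlation steps were tested on simulated data. The number of arrays limits the precision.

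Named were the clock genes, in each of the 4 other lists the 3 genes with the lowest limma p and any called gene, and the 5 highest and 5 lowest r with BMAL1. HNF4A, G6PC1, HLF, NPAS2, POR, IL6ST, OSMR, SERPING1 and INHBC were named after their values were seen. The members and lists were chosen with earlier results of these data known. The alternatives were the methods' t-test (unpaired, equal variance), a trended and robust eBayes, a filter that kept transcripts brighter than the median one, cyclic loess, array weights, no fold threshold and leaving out each cow. For correlations they were Spearman's rho, deviations from group means, cyclic loess, removal of the first principal component of all transcripts and leaving out each cow. Promoter motifs were not analysed here.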

Additional observations from a re-analysis of the deposited data

Results flagged for a closer look

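In 42 groups of 6 values (18 of them of the 9 clock genes), 4 values, of 3 cows, lay far from the rest of their group by Dixon's test at the 95% level, and chance would give about 1 in 20 groups. Cow control_1017 was low for PER1, at 7.21 with the nearest control cow at 8.36, and for PER2, at 6.79 with the nearest at 7.84. cow GSGME_741 was high for TIMELESS, at 6.91 with the nearest GSGME cow at 6.56. cow GSGME_1001 was high for USP2, at 7.32 with the nearest at 6.75.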

How the results depend on the processing

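No paired analysis was possible because the groups share no cow number. The count of all transcripts called higher, 322, was 142 among transcripts above the median transcript, 718 with no fold threshold and 271 to 468 when 1 cow was left out. The count called lower, 167, was 109 in the methods' t-test, 61 above the median transcript, 849 with no fold threshold and 139 to 289 when 1 cow was left out, the highest without cow control_819. The count of clock genes called lower was 0 to 1 when 1 cow was left out (PER1 without cow control_1017), and that called higher stayed 0. For the liver clock output genes, 0 were called higher by the methods' t-test and under both cyclic loess and array weights, and 0 to 1 when 1 cow was left out. For those called lower, the count was 1 with array weights (USP2) and 0 to 1 when 1 cow was left out. For the glucocorticoid response genes called lower it was 1 with array weights (FKBP5) and 0 to 2 when 1 cow was left out, the 2 without cow control_825 (FKBP5 and MT2A).

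Of 163 alternative values for the differences of the 9 clock genes, 146 kept direction and side of the threshold, 1 came to meet the criterion and 16 changed sign. The values from the methods' t-test, the trended and robust eBayes, the filter and the lack of a fold threshold could not change sign. These settings leave the difference itself as it was. With array weights CLOCK was 0.01. When 1 cow was left out, BMAL1 lay between -0.08 and 0.30, CLOCK between -0.08 and 0.08, PER2 between -0.15 and 0.10, PER3 between -0.32 and 0.06, CRY1 between 0.14 and 0.38, and DBP between -0.25 and 0.19. The 13 pairs with an adjusted p under 0.05 became 6 with rho and 4 to 16 when 1 cow was left out, with 4 without cow control_1041 or control_1031 or cow GSGME_821 or GSGME_1047, and 6 without cow control_819. Of 272 alternative values for 17 named pairs, 215 kept direction and side, 53 lost an adjusted p under 0.05, 4 gained it and 0 changed sign. Chosen after seeing the data, the removal of cow control_1017 moved the place of DBP among the transcripts opposite to BMAL1 from 15 to 1 and the count of other listed genes related to BMAL1 from 0 to 1. The causes were not tested. With 6 cows a group, the confidence intervals of most clock genes reach beyond a fold of 1.3.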
